A study of Arabidopsis thaliana with 10 samples.

Results

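Transcript levels of mock-treated Arabidopsis thaliana seedlings were set beside those of untreated seedlings of the same accession, Col-0, gene by gene. Genes were taken if they belong to the protein-coding class of the deposited tables and if the larger of both levels was at least 1 FPKM (mapped fragments, scaled to the length of the gene and the size of the library). That left 19750 of the 27560 genes of this class and of the 38303 genes in the tables. The other 7810 lay under 1 FPKM in both groups. Just inside that floor was AT4G39110, with a larger value of 1.00122 FPKM, and just outside it AT4G16610, with 0.99915 FPKM.

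All seedlings were whole plants, 12 days old, raised on a plate medium at 23 °C in days of 16 h light and nights of 8 h. Mock seedlings are wild-type Col-0 that served for 6 h as the control of a hormone treatment, 100 nM of the brassinosteroid brassinolide (BL); the sample titles call them non-treated, and the treatment protocol calls them mock. BL seedlings are Col-0 under that hormone treatment. Untreated Col-0 is the wild-type control of an overexpression experiment, in which the lines BZR1-YFP and BEH2-YFP each express a transcription factor of the brassinosteroid pathway from the constitutive 35S promoter in Col-0. The series is about the target genes of BZR1 and BEH2, and mock against untreated Col-0 is not a comparison its authors made. It asks how far the wild-type controls of both experiments differ, with time of day, handling and defence genes as the questions.

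Each group holds 2 libraries, but the authors deposited 1 pooled FPKM value a group, and mock and untreated Col-0 come from separate Cuffdiff runs. No gene was therefore tested, and "higher" and "lower" mean a difference of at least 2-fold in log2((mock + 0.5)/(untreated Col-0 + 0.5)), written as log2 below. The value after ± is an approximate standard error for that log2 ratio, derived from the test statistics deposited for the comparisons within each run. The variance of each comparison was divided by 2, as if both of its groups contributed equally, which is uncertain where their levels differ widely. The deposited fold changes used for it do not hold the added 0.5 FPKM. This error covers the spread within the runs and no difference between them. Whether the libraries of a group came from separate pools of plants is given only as "bio rep". The clock time of harvest is not given in the sources used here, so time of day, growth batch, handling and run cannot be told apart. BL and BZR1-YFP, 1 group of each experiment, share no library with mock and untreated Col-0; their log2 ratio is given as the same measure in other libraries, with the effects of hormone and transgene in it.

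The circadian clock of plants is a chain of transcription factors that repress or activate one another over the day. CCA1 and LHY, which peak at dawn, repress genes of the evening. The pseudo-response regulators PRR9, PRR7, PRR5 and TOC1 peak one after another from morning to evening and repress CCA1 and LHY, and the evening complex of ELF3, ELF4 and LUX represses PRR9. CCA1, LHY and the related RVE8 bind the evening element, a short DNA sequence common before genes that peak in the evening.

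Of the genes compared, 1362 (6.9%) were at least 2-fold higher in mock seedlings and 1190 (6.03%) at least 2-fold lower, and 17198 lay within 2-fold. The same shares are the base for the counts of each list below, where 1 or 2 members on a side can lie near them. The median log2 over all genes was 0.19, so most genes stood slightly higher in mock seedlings. With the median set to 0, the counts became 988 higher and 1577 lower. Differences of at least 4-fold were found in 320 genes that were higher and 318 that were lower. Of the higher genes that have a derived error, 1275 of 1329 differed by more than 2 such errors, and of the lower genes 1025 of 1090. These genes were picked at 2-fold and the median error was 0.20, so that most would pass 2 errors by that choice. A further 5618 genes within 2-fold also differed by more than 2 errors. Root markers were present in both groups (15 of 15 compared, 1 higher and 0 lower, median log2 0.02). The transgenes matched their labels, with BEH2 at 2477 FPKM in BEH2-YFP against 25.8 FPKM in untreated Col-0 and BZR1 at 1265 FPKM in BZR1-YFP against 13.8 FPKM in untreated Col-0. All 5 seed storage genes lay under 1 FPKM, with sums of 0.0476 FPKM in mock seedlings and 0.0392 FPKM in untreated Col-0.

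Promoters of clock genes from the evening side are printed first, because the evening element stands in 5 of the 12 promoters of the evening list and in 4 of the 6 promoters of the evening output list. The stretches are of the RefSeq assembly TAIR10.1, 5′ to 3′ on the strand of the gene, and lie within the 500 bases before the annotated gene start. Capitals mark the evening element, AAAATATCT or its reverse complement. TOC1, BOA and LUX hold 1 copy in the stretch shown, and GRP7 holds 3. PRR5, and RVE7 of the dawn list, are shown because they carry the element but were not higher in mock seedlings. Among the carriers not shown, COL2 (log2 -2.19), GRP8 (log2 0.24) and CAT3 (log2 -0.16) were not higher either. FKF1 (log2 2.36) and COR27 (log2 5.46), also not shown, were higher. Over all genes compared the element stood in 4.5% of promoters.
TOC1, chr5:24674737-24674886, plus strand: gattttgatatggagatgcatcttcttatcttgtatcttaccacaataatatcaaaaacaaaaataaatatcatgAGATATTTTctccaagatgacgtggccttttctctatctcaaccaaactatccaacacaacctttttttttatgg
BOA, chr5:24003738-24003887, plus strand: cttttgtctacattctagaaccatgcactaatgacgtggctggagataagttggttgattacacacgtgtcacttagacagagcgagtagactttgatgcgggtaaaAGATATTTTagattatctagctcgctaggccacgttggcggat
LUX, chr3:17182892-17183041, plus strand: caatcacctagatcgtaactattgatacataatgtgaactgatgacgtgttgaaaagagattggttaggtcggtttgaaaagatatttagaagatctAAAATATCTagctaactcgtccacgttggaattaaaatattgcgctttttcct
GRP7, chr2:9266558-9266707, minus strand: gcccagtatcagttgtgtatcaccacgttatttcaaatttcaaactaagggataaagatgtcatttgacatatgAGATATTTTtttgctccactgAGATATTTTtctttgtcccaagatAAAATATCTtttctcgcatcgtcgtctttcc
PRR5, chr5:8358659-8358808, minus strand: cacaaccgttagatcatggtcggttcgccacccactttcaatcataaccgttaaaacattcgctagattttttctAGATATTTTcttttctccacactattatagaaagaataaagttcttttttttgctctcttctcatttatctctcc
RVE7, chr1:6308244-6308393, minus strand: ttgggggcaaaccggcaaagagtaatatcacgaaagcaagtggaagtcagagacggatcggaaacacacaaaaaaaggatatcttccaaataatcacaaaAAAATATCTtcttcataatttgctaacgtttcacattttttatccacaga

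Promoters of the morning side are printed with their G-box, CACGTG, which light-regulated transcription factors bind. It stands in 5 of the 12 promoters of the dawn list, both of the day list and 2 of the 8 of the morning outputs. In the evening list it stands in 2 of 12 promoters, in the evening outputs in 0 of 6, and over all genes in 10.2%. These differences were not tested. The stretches below were taken only from genes lower in mock seedlings, and capitals mark the G-box. RVE1, PRR7 and PIF5, not shown, also carry it and were lower. RVE2 of the dawn list (log2 2.79) and LUX (log2 2.39) and BOA (log2 3.45) of the evening list carry it but were higher. CDF2, a morning output with a G-box, lay within 2-fold (log2 -0.36).
CCA1, chr2:19245348-19245447, plus strand: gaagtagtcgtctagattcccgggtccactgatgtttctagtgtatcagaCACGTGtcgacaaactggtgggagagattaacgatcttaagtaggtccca
LHY, chr1:37902-38001, minus strand: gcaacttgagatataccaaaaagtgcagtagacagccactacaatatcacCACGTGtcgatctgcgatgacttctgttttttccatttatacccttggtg
LNK3, chr3:3923309-3923408, plus strand: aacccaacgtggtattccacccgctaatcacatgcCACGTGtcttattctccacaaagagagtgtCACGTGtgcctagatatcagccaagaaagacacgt
PRR9, chr2:19232370-19232469, plus strand: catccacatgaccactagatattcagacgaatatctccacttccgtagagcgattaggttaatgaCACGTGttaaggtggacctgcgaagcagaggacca

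Of the 12 dawn genes 9 were lower in mock seedlings and 1 was higher. CCA1, a MYB-like repressor of evening genes (AT2G46830, chromosome 2, 19245591 to 19248915), had 0.249 FPKM in mock seedlings and 45.2 FPKM in untreated Col-0, a level 181-fold lower. The other groups lay close to the one of their own experiment, with 0.261 FPKM in BL seedlings against 50.6 FPKM in BZR1-YFP and 41.3 FPKM in BEH2-YFP. LHY, its close relative, had 0.571 FPKM in mock and 0.548 FPKM in BL seedlings, against 14.3 FPKM in untreated Col-0, 14.6 FPKM in BZR1-YFP and 16.9 FPKM in BEH2-YFP (log2 -3.79 ± 0.29). RVE8, an activator of evening genes, had 2.15 FPKM in mock and 1.87 FPKM in BL seedlings, against 18.6 FPKM in untreated Col-0, 20.4 FPKM in BZR1-YFP and 22.7 FPKM in BEH2-YFP (log2 -2.84 ± 0.24). For each of these 3 genes the levels of both experiments were far apart and did not overlap.

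The LNK genes, whose proteins act with the RVE factors in activating clock genes, showed wide gaps too. LNK2 stood at 4.82 FPKM in mock and 5.44 FPKM in BL seedlings, against 192 FPKM in untreated Col-0, 239 FPKM in BZR1-YFP and 262 FPKM in BEH2-YFP (log2 -5.18 ± 0.20). LNK3 had 0.375 FPKM in mock and 0.594 FPKM in BL seedlings, against 67.7 FPKM in untreated Col-0, 79.3 FPKM in BZR1-YFP and 69.1 FPKM in BEH2-YFP, a log2 of -6.29 ± 0.73 that is the lowest of all clock genes listed. LNK1 (log2 -4.40 ± 0.53) and LNK4 (log2 -3.99 ± 0.25) were also lower, as were RVE7 (log2 -2.1 ± 0.20) and, just past 2-fold, RVE1 (log2 -1.05 ± 0.20), which links the clock to growth. The dawn list had a median log2 of -3.32 beside 0.19 for all genes. The exception was RVE2, with 69.6 FPKM in mock and 95.4 FPKM in BL seedlings, against 9.66 FPKM in untreated Col-0, 9.88 FPKM in BZR1-YFP and 16.3 FPKM in BEH2-YFP (log2 2.79 ± 0.20). RVE4 (log2 -0.28) and the related AT5G52660 (log2 0.00) lay within 2-fold.

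**Figure D1:**
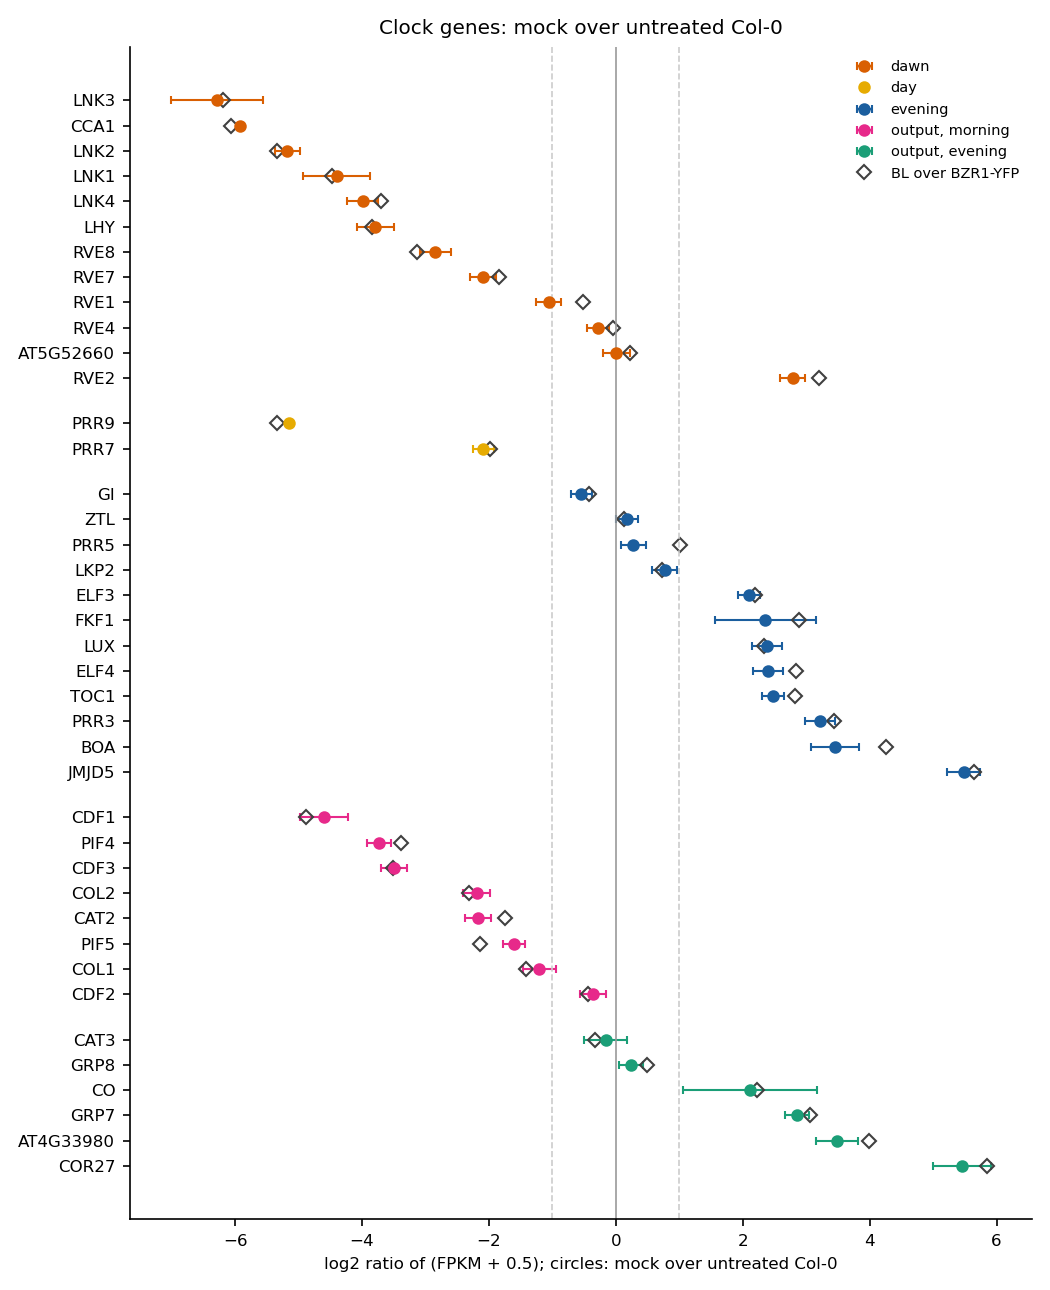
Log2 ratio of (FPKM + 0.5) for 40 clock and clock output genes. Circles give mock over untreated Col-0, with the derived standard error as a bar where one could be computed, and open diamonds BL over BZR1-YFP; dashed lines mark 2-fold. Dawn and morning genes lie mostly left of 0 down to -6.29 (LNK3), evening genes lie mostly to the right up to 5.48 (JMJD5), except GI at -0.54 and the output CAT3 at -0.16, and most diamonds lie close to the circles.

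The pseudo-response regulators were lower at the morning end of their sequence and higher at the evening end. PRR9, the earliest, had 0.218 FPKM in mock seedlings and 24.9 FPKM in untreated Col-0, with 0.252 FPKM in BL seedlings against 30.0 FPKM in BZR1-YFP and 18.9 FPKM in BEH2-YFP. PRR7 had 15.7 FPKM in mock and 16.3 FPKM in BL seedlings, against 68.3 FPKM in untreated Col-0, 65.8 FPKM in BZR1-YFP and 57.8 FPKM in BEH2-YFP (log2 -2.09 ± 0.17). PRR5 lay within 2-fold, with 10.8 FPKM in mock and 11.5 FPKM in BL seedlings, against 8.85 FPKM in untreated Col-0, 5.42 FPKM in BZR1-YFP and 6.09 FPKM in BEH2-YFP (log2 0.28 ± 0.20). The later members were higher in mock seedlings. PRR3 had 23.0 FPKM in mock and 21.2 FPKM in BL seedlings, against 2.03 FPKM in untreated Col-0, 1.5 FPKM in BZR1-YFP and 1.75 FPKM in BEH2-YFP (log2 3.22 ± 0.24). TOC1, the founding member (AT5G61380, chromosome 5, 24674963 to 24678550), had 79.3 FPKM in mock and 89.4 FPKM in BL seedlings, against 13.8 FPKM in untreated Col-0, 12.3 FPKM in BZR1-YFP and 14.0 FPKM in BEH2-YFP (log2 2.48 ± 0.17). The log2 values thus ran from -5.15 for PRR9 through -2.09 and 0.28 to 3.22 for PRR3 and 2.48 for TOC1.

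The evening complex was higher in mock seedlings in each of its 3 components. ELF4 had 72.9 FPKM in mock and 67.4 FPKM in BL seedlings, against 13.4 FPKM in untreated Col-0, 8.99 FPKM in BZR1-YFP and 4.49 FPKM in BEH2-YFP (log2 2.40 ± 0.24). ELF3 had 56.7 FPKM in mock and 60.3 FPKM in BL seedlings, against 12.9 FPKM in untreated Col-0, 12.8 FPKM in BZR1-YFP and 12.9 FPKM in BEH2-YFP (log2 2.1 ± 0.18), and LUX, its DNA-binding member, had 43.7 FPKM in mock and 45.0 FPKM in BL seedlings, against 7.95 FPKM in untreated Col-0, 8.57 FPKM in BZR1-YFP and 9.69 FPKM in BEH2-YFP (log2 2.39 ± 0.23). BOA, a close relative of LUX, had 14.2 FPKM in mock and 20.8 FPKM in BL seedlings, against 0.838 FPKM in untreated Col-0, 0.614 FPKM in BZR1-YFP and 0.366 FPKM in BEH2-YFP (log2 3.45 ± 0.38). JMJD5, a histone demethylase of the clock (AT3G20810, chromosome 3, 7275645 to 7278420), had 109 FPKM in mock and 105 FPKM in BL seedlings, against 1.96 FPKM in untreated Col-0, 1.6 FPKM in BZR1-YFP and 0.823 FPKM in BEH2-YFP. That is the largest difference of the clock genes listed on the higher side (log2 5.48 ± 0.27), and no evening element stands in its 500 bases.

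Of the 12 evening genes 8 were higher and 0 lower, with a median log2 of 2.37. Among the blue-light receptors of the ZTL family, which mark clock proteins for degradation, FKF1 was higher at 9.79 FPKM in mock seedlings against 1.51 FPKM in untreated Col-0, with a wide error (log2 2.36 ± 0.80). ZTL, whose transcript is known to vary little over the day, had 23.2 FPKM in mock seedlings and 20.5 FPKM in untreated Col-0 (log2 0.18 ± 0.17). FKF1 overlaps AT1G68060, which had 22.3 FPKM in mock seedlings and 20.2 FPKM in untreated Col-0. LKP2 lay within 2-fold (log2 0.77 ± 0.20). GI, a partner of ZTL and FKF1 that peaks before dusk, lay within 2-fold on the lower side, with 13 FPKM in mock and 12.4 FPKM in BL seedlings, against 19.2 FPKM in untreated Col-0, 16.8 FPKM in BZR1-YFP and 17.9 FPKM in BEH2-YFP (log2 -0.54 ± 0.17).

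**Figure D2:**
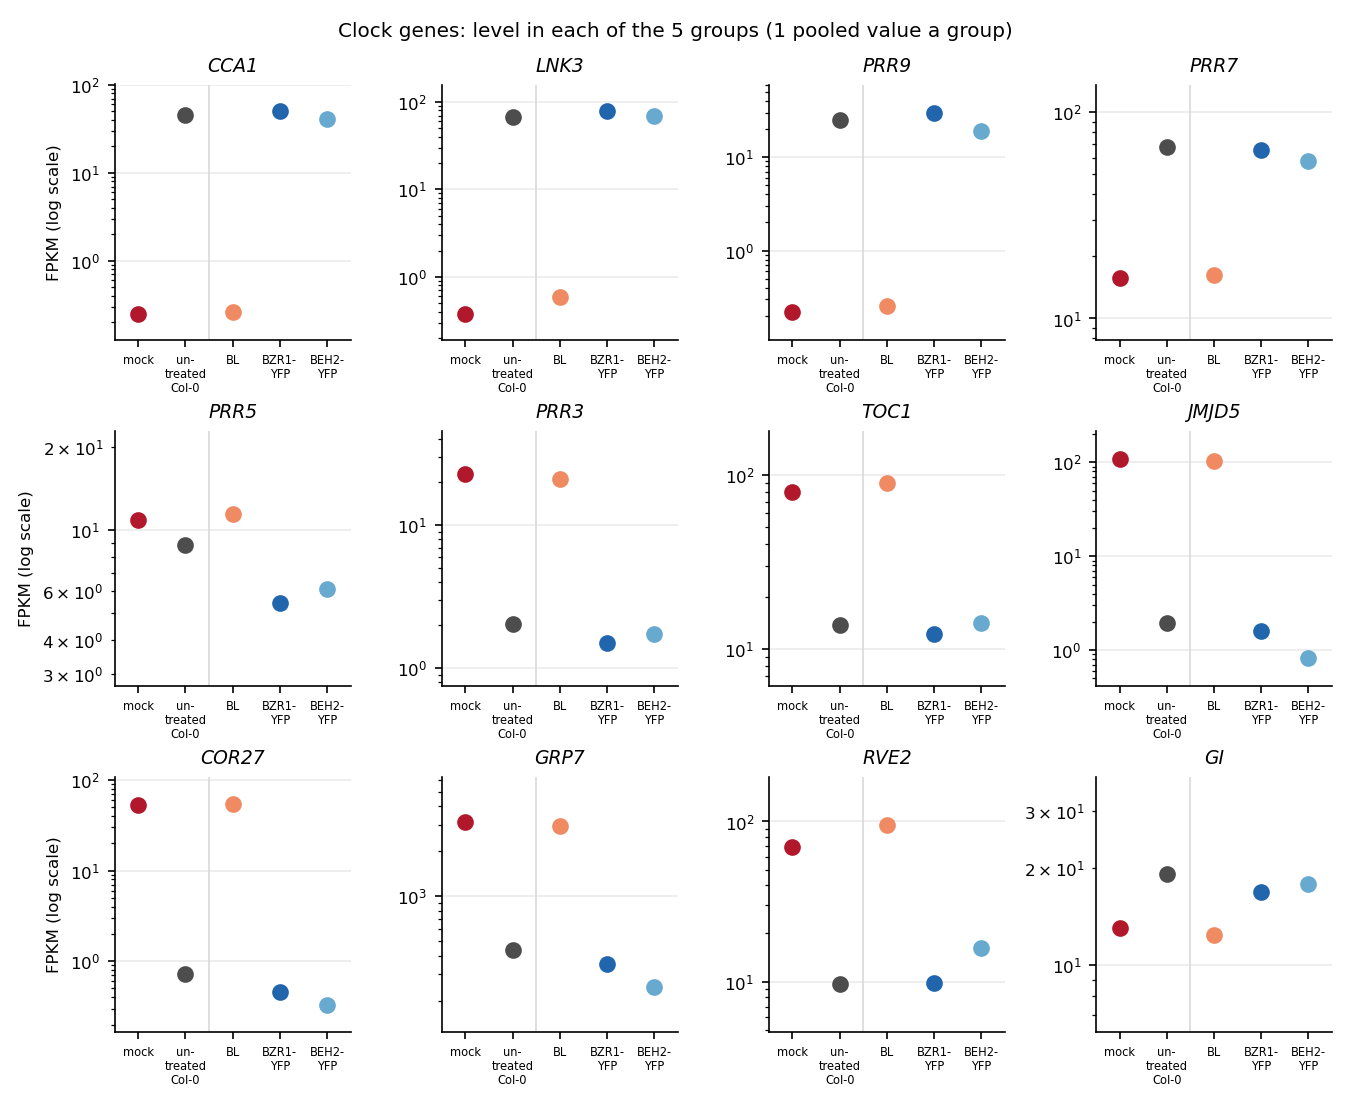
Level of 12 clock genes in FPKM on log axes, 1 pooled value for each group: mock, untreated Col-0, BL, BZR1-YFP and BEH2-YFP. Mock and BL lie together at the bottom for CCA1, LNK3, PRR9 and PRR7 and at the top for PRR3, TOC1, JMJD5, COR27, GRP7 and RVE2, apart from the 3 groups of the overexpression experiment; the panels of PRR5 and GI span less.

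Genes that the clock drives also stood on both sides. Of 8 compared morning outputs 7 were lower and 0 higher (median log2 -2.18). CDF1, a repressor of the flowering gene CO, had 0.389 FPKM in mock and 0.303 FPKM in BL seedlings, against 21.1 FPKM in untreated Col-0, 23.1 FPKM in BZR1-YFP and 14.8 FPKM in BEH2-YFP (log2 -4.60 ± 0.38). CDF3, of the same family, was lower as well (log2 -3.50 ± 0.20), while CDF2 lay within 2-fold (log2 -0.36 ± 0.21). PIF4, a bHLH factor that promotes stem growth, had 4.75 FPKM in mock and 6.14 FPKM in BL seedlings, against 69.3 FPKM in untreated Col-0, 68.6 FPKM in BZR1-YFP and 61.9 FPKM in BEH2-YFP. Its relative PIF5 (log2 -1.6 ± 0.17), the catalase CAT2 (log2 -2.17 ± 0.20) and the B-box genes COL1 (log2 -1.20 ± 0.26) and COL2 (log2 -2.19 ± 0.21) made up the rest of the 7.

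Of 6 evening outputs 4 were higher and 0 lower (median log2 2.49). COR27, a cold-induced repressor of clock genes, had 53.4 FPKM in mock and 54.5 FPKM in BL seedlings, against 0.726 FPKM in untreated Col-0, 0.454 FPKM in BZR1-YFP and 0.328 FPKM in BEH2-YFP (log2 5.46 ± 0.45). AT4G33980 was higher by a log2 of 3.48 ± 0.33. GRP7, an abundant RNA-binding protein with a rhythm of its own, had 3155 FPKM in mock and 2926 FPKM in BL seedlings, against 435 FPKM in untreated Col-0, 352 FPKM in BZR1-YFP and 246 FPKM in BEH2-YFP (log2 2.86 ± 0.19). CO, which induces flowering in long days, had 5.30 FPKM in mock and 4.78 FPKM in BL seedlings, against 0.84 FPKM in untreated Col-0, 0.627 FPKM in BZR1-YFP and 0.599 FPKM in BEH2-YFP, with an error of ± 1.06 on its log2 of 2.12. GRP8 (log2 0.24 ± 0.19) and the catalase CAT3 (log2 -0.16 ± 0.34) lay within 2-fold.

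Taking all 5 clock lists, 31 of 40 compared genes were past 2-fold, 13 higher and 18 lower. In each of the 31, mock and BL both lay above, or both below, untreated Col-0, BZR1-YFP and BEH2-YFP. Over all genes compared, both lay above in 45.4% and both below in 17.3%. Among all genes past 2-fold, both lay above in 1133 of the 1362 higher ones and both below in 1047 of the 1190 lower ones, so that most genes past 2-fold shared this separation. BL over BZR1-YFP gave the same picture, with medians of -3.42 for the dawn list and 2.57 for the evening list. The median gap between the log2 values of both pairs was 0.21 for the clock lists.

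Over all promoters of the genes compared, the evening element stood in 887 of 19698 (4.5%). The share was 6.93% among genes higher in mock seedlings (94 of 1356), 5.42% among genes lower (64 of 1180) and 4.25% among genes within 2-fold (729 of 17162). At 4-fold and more it was 9.46% of 317 higher genes and 7.89% of 317 lower genes. The G-box stood in 10.2% of all promoters, in 7.89% of the higher genes, 14.4% of the lower genes and 18.6% of the genes at least 4-fold lower. The related CCA1 binding site, AAAAATCT, stood in 12.3% of all promoters, 12.2% of the higher and 12.5% of the lower genes. Both strands were searched, and none of the 3 motifs contains another.

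Light harvesting genes, nuclear genes for the proteins that bind chlorophyll, are among the most abundant transcripts of a green seedling. Of 21 genes for light harvesting proteins and the small Rubisco subunit, 17 were lower in mock seedlings and 0 higher (median log2 -2.55). The 17 LHCA and LHCB genes together had 11214 FPKM in mock seedlings and 61254 FPKM in untreated Col-0, which is 1.62% and 8.44% of the FPKM of all protein-coding genes. LHCA1, of photosystem I, had 572 FPKM in mock and 608 FPKM in BL seedlings, against 5349 FPKM in untreated Col-0, 6075 FPKM in BZR1-YFP and 4204 FPKM in BEH2-YFP (log2 -3.22 ± 0.37). LHCB3 (log2 -4.85 ± 0.35) and LHCB2.3 (log2 -7.16 ± 0.34), of the antenna of photosystem II, differed more. LHCB1.1, also named CAB2, had 9.33 FPKM in mock seedlings and 4503 FPKM in untreated Col-0, but its reads can be shared with its near-identical neighbours. The sum of LHCB1.1, LHCB1.2 and LHCB1.3 was 5536 FPKM in mock seedlings and 22056 FPKM in untreated Col-0. LHCB2.1 and LHCB2.2, also near-identical, summed to 58.3 FPKM in mock seedlings and 4519 FPKM in untreated Col-0. The 4 small-subunit genes of Rubisco differed less, with 15409 FPKM in mock seedlings and 20753 FPKM in untreated Col-0. The FPKM of all protein-coding genes summed to 691702 in mock seedlings and 726056 in untreated Col-0. Whether the levels of these abundant transcripts bear on those of other genes was not tested. Scaled to equal sums without these 21 genes, the counts became 1264 higher and 1257 lower and the median 0.14.

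The greening factors GLK1 (log2 -1.16 ± 0.17) and GLK2 (log2 -1.70 ± 0.17), which activate light harvesting genes, were lower in mock seedlings. ELIP1, a light-stress protein, had 1.64 FPKM in mock and 1.25 FPKM in BL seedlings, against 12.7 FPKM in untreated Col-0, 13.9 FPKM in BZR1-YFP and 15.1 FPKM in BEH2-YFP (log2 -2.63 ± 0.30), and ELIP2 was lower too (log2 -2.22 ± 0.38). PIF3, which represses greening in the dark, was higher, with 35.5 FPKM in mock and 20.6 FPKM in BL seedlings, against 8.65 FPKM in untreated Col-0, 11.1 FPKM in BZR1-YFP and 17.2 FPKM in BEH2-YFP. Of 15 light signalling genes 6 were lower and 2 higher.

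B-box factors, zinc finger proteins of light and flowering signalling, stood on both sides. Of 22 compared, 11 were lower and 4 higher (median log2 -0.92). Each of these 15 had mock and BL on one side of the other 3 groups, as did 1133 of the 1362 higher and 1047 of the 1190 lower genes overall. BBX16 had 0.204 FPKM in mock and 0.0617 FPKM in BL seedlings, against 32.5 FPKM in untreated Col-0, 43.7 FPKM in BZR1-YFP and 32.4 FPKM in BEH2-YFP. COL9 went the other way, with 52.7 FPKM in mock and 56.3 FPKM in BL seedlings, against 3.30 FPKM in untreated Col-0, 2.18 FPKM in BZR1-YFP and 3.29 FPKM in BEH2-YFP (log2 3.81 ± 0.21). BBX28 (log2 -3.63) and BBX18 (log2 -3.48) were the next largest differences.

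Of 21 genes listed for darkness and sugar shortage, many of which are known to rise then, 12 were higher in mock seedlings and 0 lower (median log2 1.39). SEN1, a senescence-associated gene of the dark (AT4G35770, chromosome 4, 16944878 to 16946266), had 1035 FPKM in mock and 1469.5 FPKM in BL seedlings, against 76.3 FPKM in untreated Col-0, 90.9 FPKM in BZR1-YFP and 115 FPKM in BEH2-YFP (log2 3.75 ± 0.17). DIN10, a raffinose synthase-like enzyme, had 749 FPKM in mock and 1012 FPKM in BL seedlings, against 69.0 FPKM in untreated Col-0, 99.1 FPKM in BZR1-YFP and 179 FPKM in BEH2-YFP (log2 3.43 ± 0.18). The dormancy-associated DRM2 had 884 FPKM in mock and 1127 FPKM in BL seedlings, against 86.2 FPKM in untreated Col-0, 63.8 FPKM in BZR1-YFP and 83.7 FPKM in BEH2-YFP (log2 3.35 ± 0.17), and DRM1 was higher by a log2 of 2.46 ± 0.19. In plain FPKM, SEN1 was 13.6-fold, DIN10 10.9-fold and DRM2 10.3-fold higher in mock seedlings.

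Others of the list were BT2, a BTB scaffold protein that sugars repress (log2 3.57 ± 0.17), the hexose transporter STP1 (log2 2.60 ± 0.17), EXL2 (log2 2.32 ± 0.16) and the glucosidase BGLU30 (log2 1.99 ± 0.19). DIN3 (log2 1.62 ± 0.18) and DIN4 (log2 1.61 ± 0.21), subunits of the complex that degrades branched-chain amino acids, were higher by nearly equal amounts. AKINBETA1, a subunit of the energy sensor SnRK1, and TPS9, a trehalose-phosphate synthase-like protein, had log2 values of 1.39 ± 0.17 and 1.29 ± 0.17. ASN1, an asparagine synthetase and a common marker of starvation, lay within 2-fold, with 51.8 FPKM in mock seedlings and 35.7 FPKM in untreated Col-0. Its levels within each experiment spread further, with 156 FPKM in BL seedlings against 45.8 FPKM in BZR1-YFP and 164 FPKM in BEH2-YFP. BGLU30 is the one of the 12 for which the groups of both experiments overlapped, since BEH2-YFP reached 25.3 FPKM beside 20.3 FPKM in mock seedlings.

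Of 23 starch genes 5 were lower and 1 higher. GBSS1, the synthase of amylose, had 1.4 FPKM in mock and 1.03 FPKM in BL seedlings, against 47.4 FPKM in untreated Col-0, 46.4 FPKM in BZR1-YFP and 46.5 FPKM in BEH2-YFP (log2 -4.65 ± 0.24). The amylase BAM5 had 0.417 FPKM in mock and 0.798 FPKM in BL seedlings, against 12.9 FPKM in untreated Col-0, 22.4 FPKM in BZR1-YFP and 909 FPKM in BEH2-YFP. PWD, a kinase that phosphorylates starch for its degradation, was the gene that was higher (log2 1.48 ± 0.16), and DPE2, which uses the maltose released at night, was lower (log2 -1.33 ± 0.17).

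**Figure D3:**
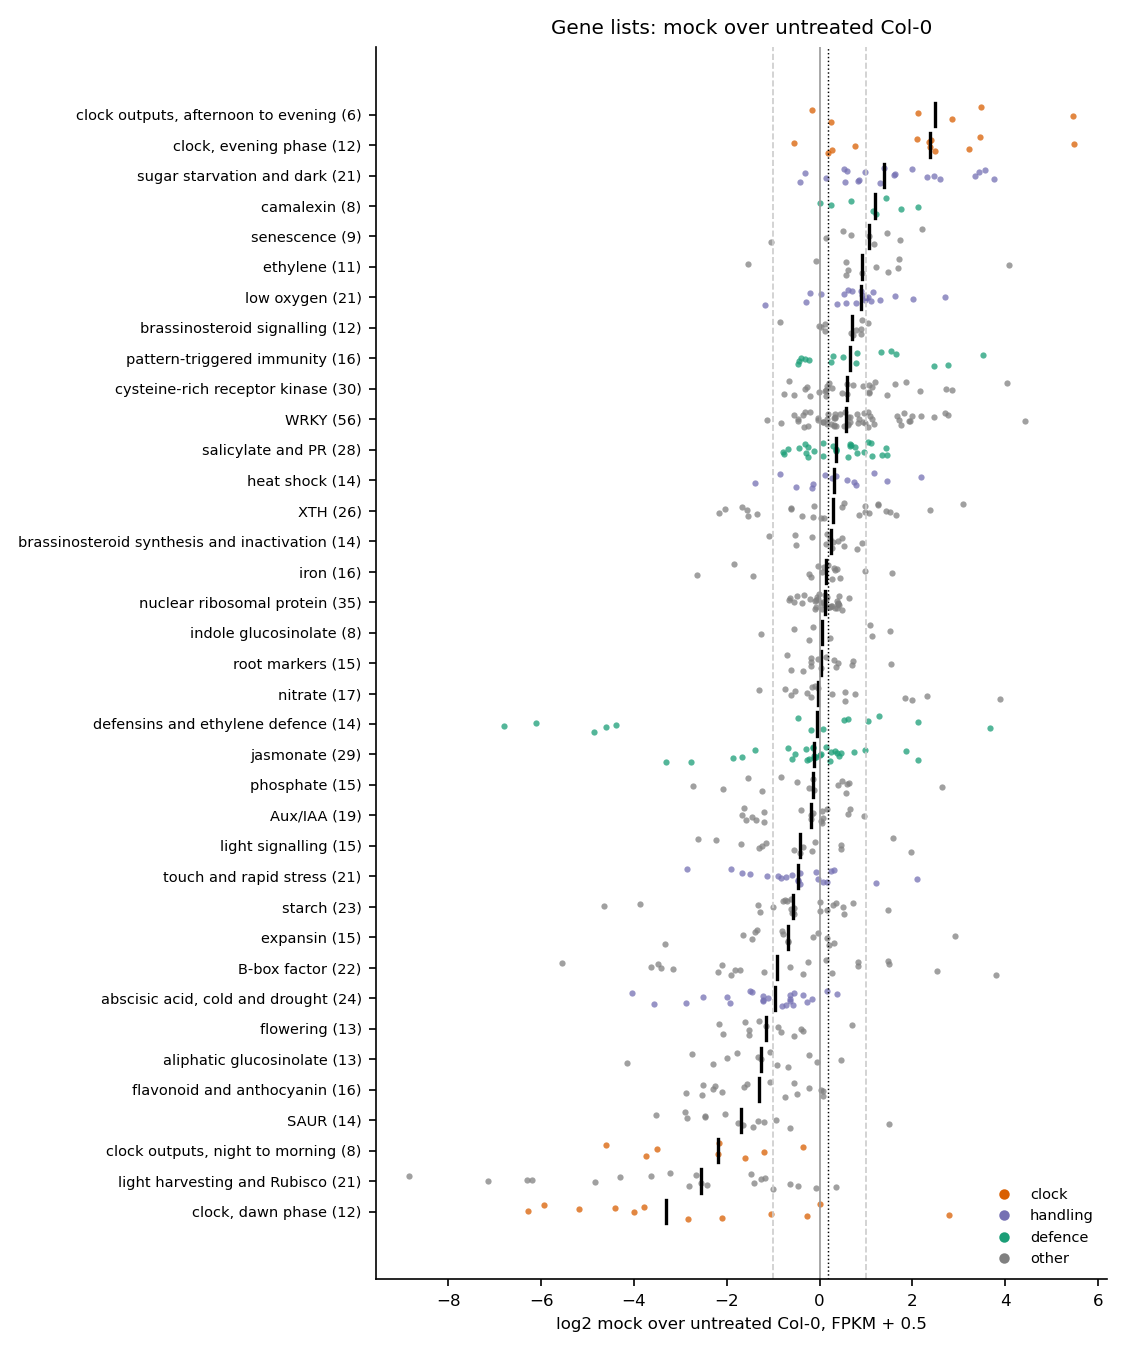
Log2 mock over untreated Col-0 for the compared members of each gene list (number in brackets), 1 dot a gene, with the median of the list as a black bar. The dotted line is the median of all genes compared (0.19) and dashed lines mark 2-fold. Evening clock genes and sugar starvation genes head the order, dawn clock genes and light harvesting genes close it, and the defensin and jasmonate lists centre near the dotted line with wide scatter.

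Genes of touch and rapid stress, many of which respond to handling within minutes, were higher in mock seedlings in 2 of 21 cases and lower in 5 (median log2 -0.47). TCH2, a calmodulin-like protein, had 27.0 FPKM in mock and 41.8 FPKM in BL seedlings, against 48.0 FPKM in untreated Col-0, 43.4 FPKM in BZR1-YFP and 44.8 FPKM in BEH2-YFP (log2 -0.82 ± 0.18), and XTH22, the touch-induced wall enzyme TCH4, had 32.4 FPKM in mock seedlings and 29.0 FPKM in untreated Col-0 (log2 0.15 ± 0.17). TCH3, another calmodulin-like protein, was higher, with 205 FPKM in mock and 303 FPKM in BL seedlings, against 47.4 FPKM in untreated Col-0, 45.3 FPKM in BZR1-YFP and 33.1 FPKM in BEH2-YFP. The annotated gene AT2G41105 overlaps TCH3 and had 118 FPKM in mock seedlings and 42.6 FPKM in untreated Col-0, so their reads may be shared. ZAT11, a zinc finger factor, was higher at a low level (log2 1.22 ± 0.38).

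The lower members of that list were transcription factors. ERF105 (log2 -1.68 ± 0.43), ERF13 (log2 -1.51 ± 0.41) and ERF6 (log2 -1.13 ± 0.23) are ethylene response factors of rapid stress. CBF2, a regulator of cold acclimation, had 0.0346 FPKM in mock seedlings and 3.40 FPKM in untreated Col-0, and CBF3 0.0833 FPKM in mock seedlings and 1.69 FPKM in untreated Col-0. CBF1, CBF2 and CBF3 are similar neighbours, so the split among them is uncertain. For ERF105 and ERF6 the groups of both experiments overlapped, with BEH2-YFP at 8.81 and 4.01 FPKM beside 9.38 and 5.42 FPKM in BL seedlings.

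Of 21 low-oxygen genes, which rise in submerged tissue, 7 were higher in mock seedlings and 1 lower (median log2 0.90). Mock and BL lay above the other 3 groups in all 7, as they did in 1133 of all 1362 higher genes. FTM1, a stearoyl-ACP desaturase, had 32.6 FPKM in mock and 16.7 FPKM in BL seedlings, against 4.56 FPKM in untreated Col-0, 3.1 FPKM in BZR1-YFP and 3.99 FPKM in BEH2-YFP (log2 2.71 ± 0.23). The ethylene receptor ETR2 (log2 1.62 ± 0.19), the oxygen-sensing cysteine oxidases PCO1 (log2 1.3 ± 0.28) and PCO2 (log2 1.11 ± 0.30) and the haemoglobin HB1 (log2 1.04 ± 0.22) were also higher. HRE1, a low-oxygen transcription factor, had 19.4 FPKM in mock seedlings and 4.41 FPKM in untreated Col-0, with an error of ± 1.29 on its log2 of 2.02. It overlaps AT1G72370, which had 341 FPKM in mock seedlings and 307 FPKM in untreated Col-0. AT1G33055, which overlaps AT1G33050 (43.8 FPKM in mock seedlings and 22.9 FPKM in untreated Col-0), was the seventh, with an error of ± 1.17 on its log2 of 1.14.

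The fermentation enzymes that define this response did not pass 2-fold. ADH1, alcohol dehydrogenase, had 9.76 FPKM in mock and 7.75 FPKM in BL seedlings, against 5.01 FPKM in untreated Col-0, 4.95 FPKM in BZR1-YFP and 7.78 FPKM in BEH2-YFP (log2 0.90 ± 0.36). ADH1 overlaps AT1G77122, which had 13.8 FPKM in mock seedlings and 17 FPKM in untreated Col-0. PDC1, pyruvate decarboxylase, had 2.09 FPKM in mock seedlings and 2.67 FPKM in untreated Col-0 (log2 -0.29 ± 0.27). HRE2 lay under 1 FPKM in both, with 0.391 FPKM in mock seedlings and 0.105 FPKM in untreated Col-0. SUS4, a sucrose synthase, was the lower member (log2 -1.17 ± 0.26).

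Heat shock genes were mixed, with 3 of 14 higher and 1 lower (median log2 0.32). HSP70, the inducible chaperone, had 25.2 FPKM in mock seedlings and 27.8 FPKM in untreated Col-0. HSFA7A, a heat shock factor, had 28.1 FPKM in mock and 32.6 FPKM in BL seedlings, against 5.78 FPKM in untreated Col-0, 8.11 FPKM in BZR1-YFP and 8.36 FPKM in BEH2-YFP (log2 2.19 ± 0.21). The small heat shock proteins HSP17.6A (log2 1.46) and AT1G53540 (log2 1.18) were higher at low levels, with 2.05 and 1.86 FPKM in mock seedlings, and HSP18.2 was lower (log2 -1.4 ± 0.30).

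Of 24 genes of abscisic acid, cold and drought 12 were lower in mock seedlings and 0 higher (median log2 -0.96). Mock and BL lay below the other 3 groups in all 12, as they did in 1047 of all 1190 lower genes. COR15A, a chloroplast protein of cold tolerance, had 0.854 FPKM in mock and 0.647 FPKM in BL seedlings, against 21.8 FPKM in untreated Col-0, 21.2 FPKM in BZR1-YFP and 5.87 FPKM in BEH2-YFP (log2 -4.04 ± 0.44). RAB18, a dehydrin, had 1.4 FPKM in mock and 0.443 FPKM in BL seedlings, against 22.1 FPKM in untreated Col-0, 33.3 FPKM in BZR1-YFP and 13.4 FPKM in BEH2-YFP (log2 -3.57 ± 1.12). RAB18 overlaps AT5G66410, which had 14.2 FPKM in mock seedlings and 17.2 FPKM in untreated Col-0. P5CS1, the enzyme that limits proline synthesis, had 13.2 FPKM in mock and 16.6 FPKM in BL seedlings, against 100.7 FPKM in untreated Col-0, 129 FPKM in BZR1-YFP and 123 FPKM in BEH2-YFP (log2 -2.89 ± 0.19). RD29A, another well-known marker of water and cold stress, lay within 2-fold (log2 -0.82 ± 0.20).

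The other lower members were GOLS2 (log2 -2.51 ± 0.31) and GOLS3 (log2 -2.0), synthases of galactinol, and NCED3, the enzyme that limits abscisic acid synthesis (log2 -1.93 ± 0.31). ABF3, a transcription factor of the hormone (log2 -1.5 ± 0.24), and the phosphatases ABI2 (log2 -1.45 ± 0.22) and HAI1 (log2 -1.1 ± 0.27), which hold its signal back, were lower as well. KIN1, ERD10 and LEA4-5, protective proteins of dry or cold cells, had log2 values of -1.23, -1.22 and -1.22. COR47 was the highest of the list at a log2 of 0.38 ± 0.17.

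Over the 5 defence lists, 23 of 95 compared genes were higher in mock seedlings and 10 lower, with a median log2 of 0.26. Mock and BL lay on one side of the other 3 groups in 15 of the 23 higher and in 5 of the 10 lower genes, beside 1133 of 1362 and 1047 of 1190 for all genes past 2-fold and 31 of 31 for the clock. The median range of untreated Col-0, BZR1-YFP and BEH2-YFP was a log2 of 0.86 for the defence lists, 0.29 for the clock lists and 0.28 for all genes. These differences between lists were not tested.

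Salicylate genes were 6 of 28 higher and 0 lower (median log2 0.36). PR1, the main marker of this hormone, had 26.9 FPKM in mock and 54.0 FPKM in BL seedlings, against 15.2 FPKM in untreated Col-0, 23.0 FPKM in BZR1-YFP and 500.1 FPKM in BEH2-YFP. PR2, a glucanase, had 51.3 FPKM in mock seedlings and 63.2 FPKM in untreated Col-0 (log2 -0.30 ± 0.20). PR5, a thaumatin-like protein, had 7.13 FPKM in mock seedlings and 12.6 FPKM in untreated Col-0 (log2 -0.78 ± 0.25). None of the 3 PR genes passed 2-fold between the wild-type controls. The higher genes were regulators: SARD1 (log2 1.45 ± 0.22) and CBP60G (log2 1.12 ± 0.20), which activate salicylate synthesis, NIMIN-2 (log2 1.43 ± 0.30), SAG101 (log2 1.34 ± 0.22), ACD6 (log2 1.03 ± 0.17) and WRKY38 (log2 1.13 ± 0.38).

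Of 29 jasmonate genes 2 were higher and 5 lower (median log2 -0.12), beside 6.9% higher and 6.03% lower over all genes. VSP2, a storage protein and the usual marker of the hormone, had 20.9 FPKM in mock and 22.8 FPKM in BL seedlings, against 212 FPKM in untreated Col-0, 292 FPKM in BZR1-YFP and 237 FPKM in BEH2-YFP (log2 -3.32 ± 0.18). VSP1 was close to it (log2 -2.77 ± 0.18). LOX2, a lipoxygenase of jasmonate synthesis, had 51.6 FPKM in mock and 9.14 FPKM in BL seedlings, against 189 FPKM in untreated Col-0, 250.2 FPKM in BZR1-YFP and 988 FPKM in BEH2-YFP. The chlorophyllase CLH1 (log2 -1.38 ± 0.17) and the methyltransferase JMT, at 0.0973 FPKM in mock seedlings and 1.41 FPKM in untreated Col-0, were lower as well. CYP94C1 (log2 1.85 ± 0.23), which oxidises the active hormone, and ST2A (log2 2.13 ± 0.20), a sulfotransferase acting on a jasmonate, were higher.

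**Figure D4:**
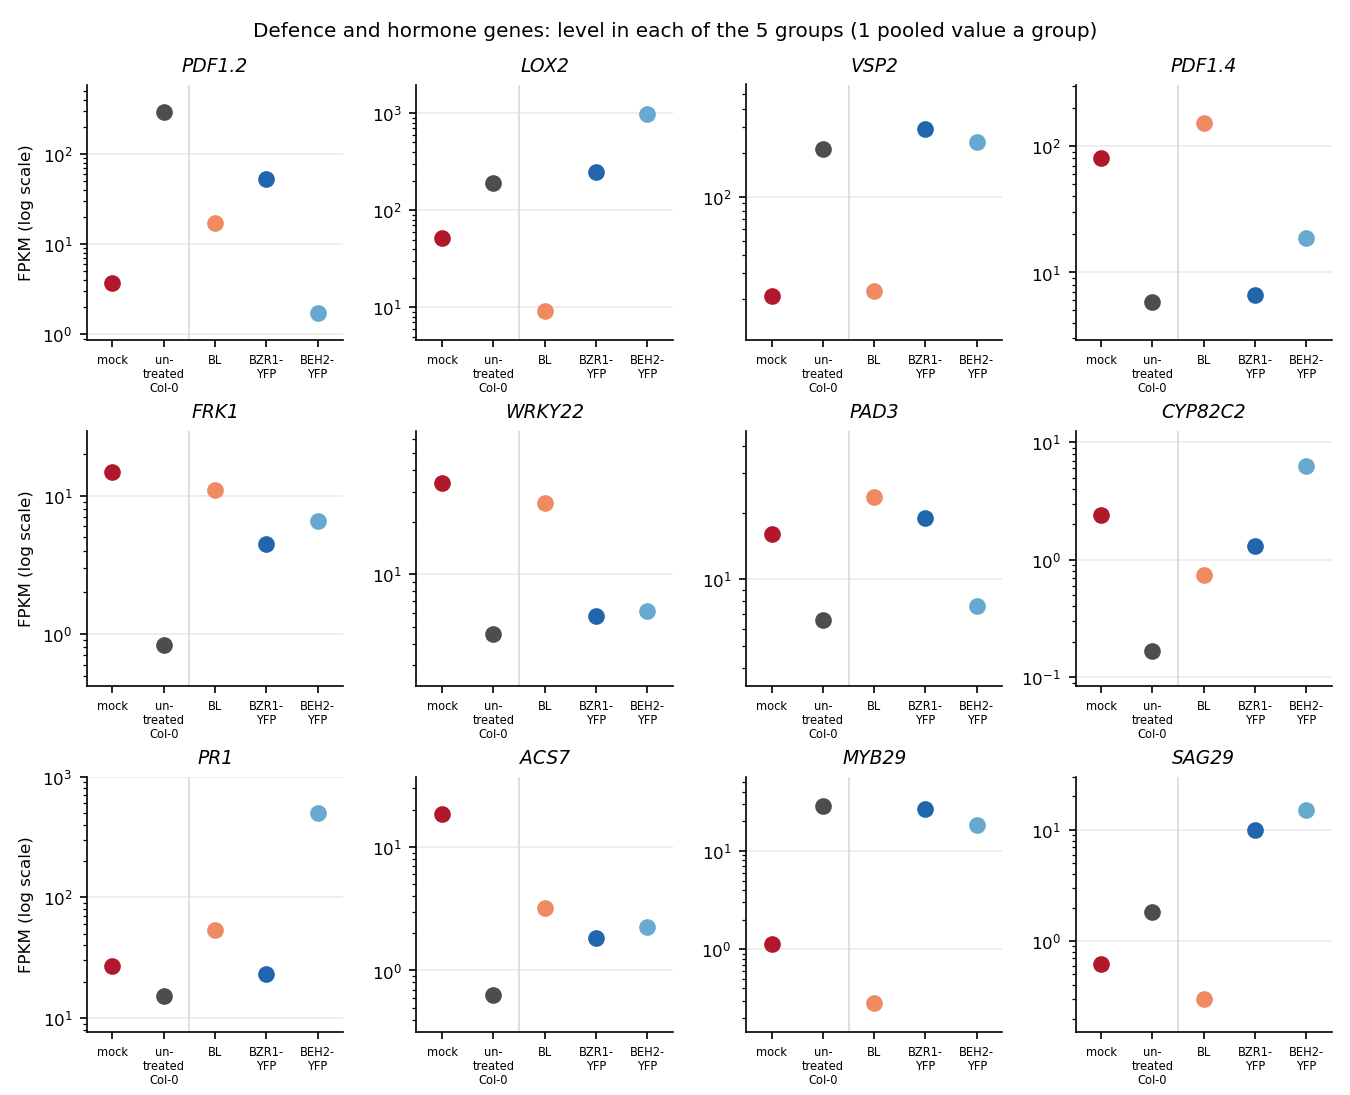
Level of 12 defence and hormone genes in FPKM on log axes, 1 pooled value for each group: mock, untreated Col-0, BL, BZR1-YFP and BEH2-YFP. VSP2, WRKY22, PDF1.4 and MYB29 separate mock and BL from the 3 groups of the overexpression experiment, whereas PDF1.2, PAD3, CYP82C2 and PR1 overlap between the experiments.

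Of 14 genes of defensins and ethylene defence 4 were higher in mock seedlings and 5 lower, and the defensins among them had the widest gaps of the defence lists. PDF1.2, an antifungal defensin of the jasmonate and ethylene response, had 3.74 FPKM in mock seedlings and 293 FPKM in untreated Col-0 (log2 -6.11 ± 0.30). The other groups lay between or beyond, with 17.3 FPKM in BL seedlings against 52.6 FPKM in BZR1-YFP and 1.72 FPKM in BEH2-YFP. PDF1.2, PDF1.2b, PDF1.2c and PDF1.3 are near-identical, and their sum was 9.54 FPKM in mock seedlings and 583 FPKM in untreated Col-0, with 25.7 FPKM in BL seedlings against 84.5 FPKM in BZR1-YFP and 4.21 FPKM in BEH2-YFP. Untreated Col-0 thus had the highest and BEH2-YFP, grown in the same experiment, the lowest level of these defensins. THI2.1, a thionin, was lower, with 0.711 FPKM in mock and 0.262 FPKM in BL seedlings, against 35.0 FPKM in untreated Col-0, 16.2 FPKM in BZR1-YFP and 4.21 FPKM in BEH2-YFP. PDF1.4 was higher, with 80.2 FPKM in mock and 154 FPKM in BL seedlings, against 5.79 FPKM in untreated Col-0, 6.66 FPKM in BZR1-YFP and 18.9 FPKM in BEH2-YFP (log2 3.68 ± 0.24). The activators of PDF1.2, ORA59 (log2 1.04 ± 0.26) and ERF1 (log2 1.28 ± 0.47), were higher, and PDF1.1 was higher at a low level, with 1.99 FPKM in mock seedlings and 0.0696 FPKM in untreated Col-0.

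Pattern-triggered immunity, the response to microbial molecules, had 6 of 16 genes higher and 0 lower (median log2 0.65). FRK1, a receptor kinase and its usual marker, had 14.8 FPKM in mock and 11 FPKM in BL seedlings, against 0.836 FPKM in untreated Col-0, 4.45 FPKM in BZR1-YFP and 6.58 FPKM in BEH2-YFP. Its log2 was 3.52 ± 0.44 between the wild-type controls and 1.21 for BL over BZR1-YFP, and untreated Col-0 had the lowest level of the 5 groups. FRK1 overlaps AT2G19180, which had 29.7 FPKM in mock seedlings and 25.8 FPKM in untreated Col-0. WRKY22, a transcription factor of the pathway, had 33.7 FPKM in mock and 25.7 FPKM in BL seedlings, against 4.53 FPKM in untreated Col-0, 5.75 FPKM in BZR1-YFP and 6.15 FPKM in BEH2-YFP (log2 2.77 ± 0.21). WRKY29 (log2 2.46 ± 0.23), the flagellin receptor FLS2 (log2 1.65 ± 0.23), the kinase BIK1 (log2 1.54 ± 0.18) and CYP81F2 (log2 1.32 ± 0.20), which modifies indole glucosinolates, were higher too.

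Camalexin is the main antimicrobial compound of Arabidopsis. Of 8 listed genes of camalexin and related indole defence compounds 5 were higher and 0 lower (median log2 1.19). The median for BL over BZR1-YFP was 0.02, however, and in 0 of the 5 did mock and BL lie on one side of the other groups. PAD3, the last enzyme of camalexin synthesis, had 16.1 FPKM in mock and 23.4 FPKM in BL seedlings, against 6.60 FPKM in untreated Col-0, 19.0 FPKM in BZR1-YFP and 7.63 FPKM in BEH2-YFP. CYP82C2 had 2.40 FPKM in mock and 0.74 FPKM in BL seedlings, against 0.167 FPKM in untreated Col-0, 1.3 FPKM in BZR1-YFP and 6.31 FPKM in BEH2-YFP. CYP71A12 (log2 1.42 ± 0.19) was the next. GSTF6 and GSTF7, near-identical glutathione transferases, summed to 533 FPKM in mock seedlings and 189 FPKM in untreated Col-0, with 603 FPKM in BL seedlings against 320 FPKM in BZR1-YFP and 848 FPKM in BEH2-YFP.

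Of 56 compared WRKY genes 17 were higher and 1 lower (median log2 0.58). WRKY49 had 29.7 FPKM in mock and 8.85 FPKM in BL seedlings, against 0.911 FPKM in untreated Col-0, 1.82 FPKM in BZR1-YFP and 1.6 FPKM in BEH2-YFP. WRKY18, a regulator of basal defence, had 52.1 FPKM in mock seedlings and 7.51 FPKM in untreated Col-0 (log2 2.71 ± 0.19), but BEH2-YFP had 46.6 FPKM. Of 30 cysteine-rich receptor kinases 12 were higher and 0 lower (median log2 0.59). Mock and BL lay above the other groups in 9 of the 12, and in BL over BZR1-YFP 6 of these kinases were higher and 0 lower. CRK13 (log2 4.05 ± 0.24), CRK29 (log2 2.85 ± 0.21), CRK28 (log2 2.73 ± 0.32) and CRK30 (log2 2.17 ± 0.22) led that family. CRK28 and CRK29 overlap each other, so their reads may be shared.

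**Figure D5:**
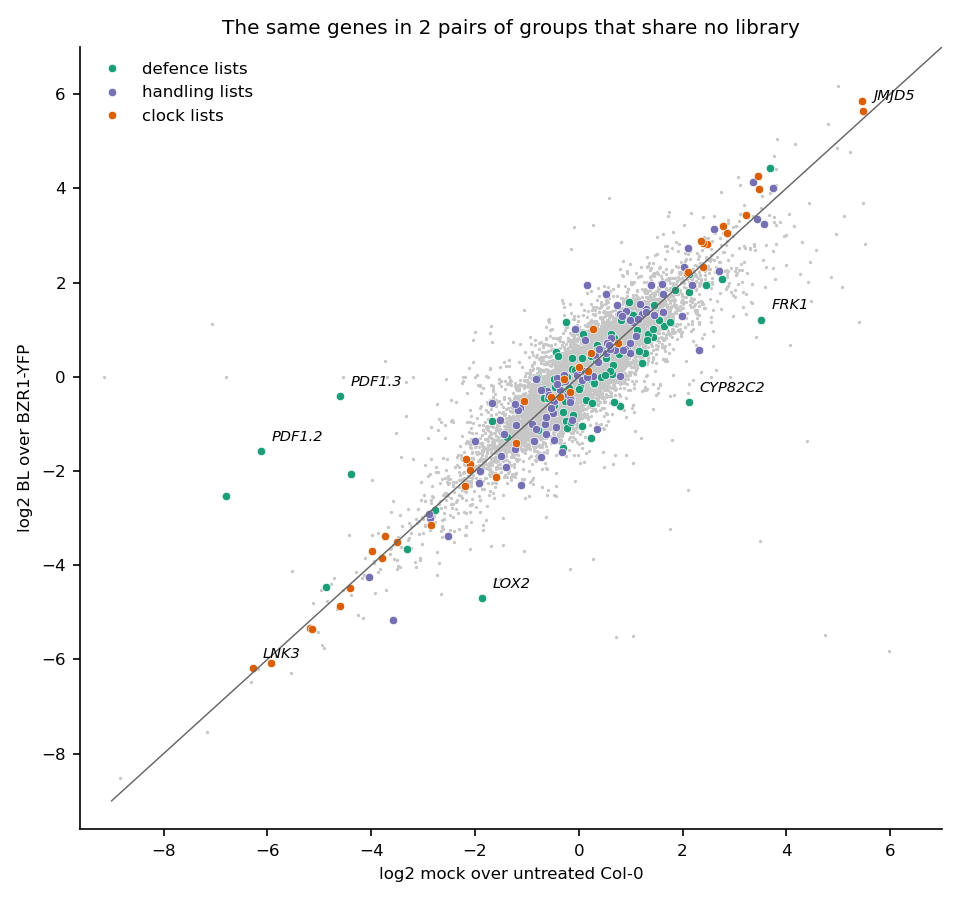
Log2 BL over BZR1-YFP against log2 mock over untreated Col-0 for the 19750 genes compared (grey), with clock, handling and defence lists in colour and a line of equality. Clock genes lie along the line up to JMJD5 and down to LNK3, while PDF1.2, PDF1.3, LOX2, FRK1 and CYP82C2 lie away from it.

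Over all genes, much of the difference between the wild-type controls recurred in BL over BZR1-YFP, which shares no library with them. BL over BEH2-YFP shares none either, and its genes past 2-fold were not counted. There JMJD5 (log2 6.31) and CCA1 (log2 -5.78) kept their side, but AZI1 had a log2 of -0.22 and PDF1.2 of 3.01. BL over BZR1-YFP was counted only within the genes compared, whose floor was set on mock and untreated Col-0 alone. Of these, 1431 (7.25%) were higher and 1208 (6.12%) lower in BL over BZR1-YFP. On the same side in mock over untreated Col-0 were 976 and 851. That is 71.7% of the higher genes of mock over untreated Col-0 and 68.2% of those of BL over BZR1-YFP, and 71.5% and 70.4% of the lower genes. Past 2-fold in opposite directions were 11 genes higher in mock over untreated Col-0 and 3 lower there. Across the genes Pearson's r was 0.85 and Spearman's rho 0.82, as a description of genes that share runs and are not independent replicates. The median gap between both log2 values was 0.17 for all genes, 0.21 for the clock lists, 0.30 for the handling lists and 0.41 for the defence lists.

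Of 13 aliphatic glucosinolate genes 8 were lower and 0 higher (median log2 -1.25). MYB29, an activator of the pathway, had 1.13 FPKM in mock and 0.286 FPKM in BL seedlings, against 28.5 FPKM in untreated Col-0, 26.7 FPKM in BZR1-YFP and 18.4 FPKM in BEH2-YFP (log2 -4.15 ± 0.32). The enzyme CYP79F1 (log2 -2.75 ± 0.18), MYB76 (log2 -2.29) and the oxygenase FMO-GS-OX1 (log2 -1.99 ± 0.20) followed. Of 8 indole glucosinolate genes 3 were higher and 1 lower, with MYB122 (log2 1.51 ± 0.41) and MYB51 (log2 1.14 ± 0.19) higher and MYB34 lower (log2 -1.27 ± 0.18).

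Flavonoid genes were lower in 9 of 16 and higher in 0 (median log2 -1.32). PAP1, a MYB activator of anthocyanin synthesis, had 0.0664 FPKM in mock and 0.0738 FPKM in BL seedlings, against 3.68 FPKM in untreated Col-0, 3.88 FPKM in BZR1-YFP and 15.4 FPKM in BEH2-YFP. The transferase TT19 had 0.0162 FPKM in mock seedlings and 2.50 FPKM in untreated Col-0, and the enzymes DFR (log2 -2.51) and LDOX (log2 -2.31) had log2 values close to that of TT19 (-2.54). All 3 were higher in BEH2-YFP than in untreated Col-0.

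Of 11 ethylene genes 5 were higher and 1 lower (median log2 0.91). ACS7, which makes the ethylene precursor, had 18.6 FPKM in mock and 3.22 FPKM in BL seedlings, against 0.63 FPKM in untreated Col-0, 1.82 FPKM in BZR1-YFP and 2.25 FPKM in BEH2-YFP, so that mock seedlings had the highest level by a wide margin. The regulator EBF2 was also higher (log2 1.69 ± 0.16), and ACS6 was lower (log2 -1.54 ± 0.19). EBF2 overlaps the antisense gene AT5G03965, which had 145 FPKM in mock seedlings and 38.2 FPKM in untreated Col-0, so their reads may be shared. Mock and BL lay above the other groups in 3 of the 5 higher ethylene genes. In BL over BZR1-YFP 2 ethylene genes were higher and 1 was lower. Of 14 genes of brassinosteroid synthesis and inactivation 1 was lower, BR6OX1 at 0.593 FPKM in mock seedlings and 1.84 FPKM in untreated Col-0, and 0 were higher. Of 12 brassinosteroid signalling genes 1 was higher, BEH2, at 53.5 FPKM in mock seedlings and 25.8 FPKM in untreated Col-0 (log2 1.04 ± 0.22). Both counts of 1 gene lie near the shares over all genes, 6.03% lower and 6.9% higher. BEH2 lay under 2-fold with the median of all genes set to 0 (0.85) and with scaling without light harvesting genes (0.99), and had 6.91 FPKM in BL seedlings.

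SAUR genes, small auxin-induced proteins of cell expansion, were lower in 11 of 14 and higher in 1 (median log2 -1.70), whereas the median for BL over BZR1-YFP was -0.49. SAUR20 had 0.759 FPKM in mock seedlings and 14.0 FPKM in untreated Col-0, with 11.6 FPKM in BL seedlings against 27.1 FPKM in BZR1-YFP and 30.8 FPKM in BEH2-YFP. SAUR15 (log2 -2.90 ± 0.44), SAUR24 (log2 -2.85 ± 0.34) and SAUR23 (log2 -2.47 ± 0.39) were lower too; SAUR19 to SAUR24 are similar neighbours, and the split among them is uncertain. Mock and BL both lay below the other groups in 4 of the 11 lower SAUR genes. Aux/IAA repressors were lower in 7 of 19 and higher in 0, led by IAA19 (log2 -1.66 ± 0.24) and IAA1 (log2 -1.63 ± 0.23).

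Of 26 xyloglucan endotransglucosylase genes 8 were higher and 6 lower, with XTH11 (log2 3.09 ± 0.31) and XTH24 (log2 2.38 ± 0.18) at one end and XTH31 (log2 -2.18 ± 0.19) and XTH19 (log2 -2.03 ± 0.20) at the other. None of the 8 higher XTH genes had mock and BL both above the other 3 groups. Of 15 expansins 5 were lower and 1 higher, beside 6.03% lower and 6.9% higher over all genes. EXPA8 had 12.6 FPKM in mock and 47.3 FPKM in BL seedlings, against 131 FPKM in untreated Col-0, 85.2 FPKM in BZR1-YFP and 44.6 FPKM in BEH2-YFP (log2 -3.33 ± 0.18), and EXPA16 9.97 FPKM in mock seedlings and 0.875 FPKM in untreated Col-0 (log2 2.93 ± 0.38).

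Among nutrient genes, NRT2:1, a high-affinity nitrate transporter, had 10.2 FPKM in mock and 6.84 FPKM in BL seedlings, against 0.226 FPKM in untreated Col-0, 0.254 FPKM in BZR1-YFP and 0.514 FPKM in BEH2-YFP (log2 3.88 ± 0.40). The nitrate transporter NRT1.1 (log2 2.32 ± 0.17) and NRT3.1, the partner of NRT2:1 (log2 1.99 ± 0.18), were higher too. In all, 4 of 17 nitrate genes were higher and 1 lower. Of 15 phosphate genes 4 were lower and 1 higher, with PS2, a phosphatase (log2 -2.73 ± 0.22), and RNS1, a ribonuclease (log2 2.64 ± 0.22), as the extremes. In BL over BZR1-YFP 2 phosphate genes were higher and 0 lower. Of 16 iron genes 3 were lower and 1 higher, led by NAS1, a nicotianamine synthase (log2 -2.64 ± 0.19). The 1 higher gene of the phosphate list and of the iron list lies near the share over all genes (6.9%).

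Flowering genes were lower in 7 of 13 and higher in 0 (median log2 -1.16). SOC1, an integrator of flowering signals, had 21.3 FPKM in mock and 29.0 FPKM in BL seedlings, against 62.2 FPKM in untreated Col-0, 63.9 FPKM in BZR1-YFP and 32.1 FPKM in BEH2-YFP (log2 -1.53 ± 0.17), and AP1, a floral identity gene, 0.855 FPKM in mock seedlings and 3.61 FPKM in untreated Col-0. AP3 (log2 -2.17 ± 0.48) and SPL5 (log2 -2.09 ± 0.91) differed most. Senescence genes were higher in 5 of 9 and lower in 1, with NAC6, which promotes leaf ageing, at 30.8 FPKM in mock and 21.2 FPKM in BL seedlings, against 6.31 FPKM in untreated Col-0, 12.4 FPKM in BZR1-YFP and 21.6 FPKM in BEH2-YFP (log2 2.2 ± 0.20). In BL over BZR1-YFP 1 senescence gene was higher and 2 were lower (median log2 0.48), and 1 of the 5 higher genes had mock and BL above the other groups. SAG29 was the lower one, with 0.618 FPKM in mock and 0.301 FPKM in BL seedlings, against 1.82 FPKM in untreated Col-0, 9.90 FPKM in BZR1-YFP and 15.1 FPKM in BEH2-YFP. Of 35 nuclear ribosomal protein genes 0 were past 2-fold (median log2 0.12).

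Among named genes that reached 5 FPKM in either group, the 12 with the largest log2 on the higher side included, beside JMJD5, COR27, WRKY49 and ACS7, several transporters and defence genes. PP2-A5, a phloem protein, had 62.4 FPKM in mock and 23.5 FPKM in BL seedlings, against 0.904 FPKM in untreated Col-0, 1.36 FPKM in BZR1-YFP and 3.18 FPKM in BEH2-YFP. AZI1, a lipid transfer-like protein of systemic resistance, had 995 FPKM in mock and 462 FPKM in BL seedlings, against 33.9 FPKM in untreated Col-0, 106 FPKM in BZR1-YFP and 537 FPKM in BEH2-YFP. The transporters PTR3 (log2 4.45 ± 0.22) and OPT1 (log2 4.15 ± 0.26) and the threonine aldolase THA1 (log2 4.16 ± 0.53) were next. For PTR3 the experiments overlapped, with 43.7 FPKM in mock and 28.6 FPKM in BL seedlings beside 44.9 FPKM in BEH2-YFP. OPT1 overlaps the non-coding gene AT5G08425, which had 167 FPKM in mock seedlings and 6.68 FPKM in untreated Col-0. On the lower side, beside light harvesting genes, defensins, CCA1, PRR9 and BBX16, stood CIPK20, a protein kinase, at 0.163 FPKM in mock seedlings and 37.4 FPKM in untreated Col-0, and SQP1 (log2 -4.97 ± 0.24).

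Both ends also held 4 short plastid genes whose level was listed at 0 in some groups. These were rpl36, psaJ and psbF, listed at 0 in untreated Col-0, and psbJ, listed at 0 in mock seedlings; rpl36 was further listed at 0 in BL seedlings and at 27.8 FPKM in BZR1-YFP. No fold is given for them. Over all genes past 2-fold, 10 of the higher ones were listed at 0 in untreated Col-0 and 24 of the lower ones in mock seedlings. Of 44 plastid genes compared 5 were higher and 10 lower in mock seedlings.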

How the data were processed

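Per the labels' protocols, mRNA libraries were made with a stranded kit from whole seedlings, 10 libraries in 5 groups of 2. The submitters' processing notes name TopHat2 2.0.13, the build TAIR10 and Cuffdiff 2.2.0. The sources used here give neither the trimming nor the annotation nor the use of strand. The authors deposited 3 tables, 1 of BL seedlings with their mock control and 1 for each transgenic line with untreated Col-0. Per the file headers they hold FPKM values pooled over the 2 libraries of a group, the authors' fold change on the log2 scale, the test statistic (a score of Cuffdiff), and p-values and q-values. Samples were grouped by the labels. Depth per library is unknown, so no interval of counting error is given.

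Mock FPKM was taken from the BL table and untreated Col-0 FPKM from the BEH2-YFP table, 0.5 FPKM was added to both, and genes with a larger value of at least 1 FPKM were kept. The derived standard error came from the deposited log2 fold change over the test statistic and over a constant of 1.43, 1.42 and 1.43 for BL, BEH2-YFP and BZR1-YFP. The constant was fitted on p-values between 0.0002 and 0.9. For mock over untreated Col-0 the variances of both sides were divided by 2 and summed. On the side of untreated Col-0 this was the mean variance of its comparisons with BEH2-YFP and BZR1-YFP. The resulting error had a median of 0.20. Promoters are the 500 bases before the gene start in RefSeq TAIR10.1, found for 19698 genes. The text names every compared clock gene, the handling and defence genes past 2-fold with the defining markers of those lists, up to 4 genes past 2-fold by size in each other list, and the 12 largest differences each way among named genes at 5 FPKM or more. A few further genes were chosen after their values were seen. The comparison and all lists were chosen with earlier results of these data known, and the starch, cysteine-rich receptor kinase and B-box lists were added after the files were examined. Alternatives were another pseudocount, another floor, centring, scaling to equal sums, other gene classes and genes tested by the authors. The calculation was tested on simulated data and used Python 3.11.15, numpy 2.4.6, pandas 2.3.3 and SciPy 1.17.1, with matplotlib 3.10.9 for figures.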

Additional observations from a re-analysis of the deposited data

How the results depend on the processing

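No paired analysis was possible because the deposited values are pooled over the libraries of a group, and for the same reason no replicate could be left out. Across pseudocounts of 0.1 and 1 FPKM, no floor or a floor of 5 FPKM, centring, scaling to equal sums, all gene classes and only genes with status OK in both runs, the genes at least 2-fold higher in mock seedlings numbered between 988 (centred) and 1547 (pseudocount of 0.1 FPKM). Those at least 2-fold lower numbered between 859 (floor of 5 FPKM) and 1577 (centred). Each count stayed within 1.5 times the one reported. The median log2 of all genes lay between 0.05 (no floor) and 0.25 (equal sums), apart from centring, which sets it to 0. Scaling without light harvesting and Rubisco genes was chosen after seeing the data. No named gene past 2-fold changed direction, which none of these alternatives could bring about. RVE1 was the one clock gene to cross 2-fold, at -0.99 with equal sums. With centring RD29A and TCH2 passed 2-fold on the lower side, both at -1.01, and 13 named genes dropped under 2-fold, with log2 values of 0.85 (HB1, ACD6, ORA59 and BEH2), 0.90 (CYP83B1), 0.92 (PCO2), 0.93 (CBP60G), 0.94 (WRKY38), 0.95 (MYB51), 0.96 (AT1G33055 and GSTF7), 0.98 (WRKY6) and 0.99 (AT1G53540). With a pseudocount of 1 FPKM 11 dropped under it, namely RVE1, SUS4, PCO2, AT1G33055, AT1G53540, LEA4-5, HAI1, WRKY38, ERF1, ORA59 and BR6OX1, and with scaling without light harvesting and Rubisco genes 4, namely HB1, ACD6, ORA59 and BEH2. Of 38 list medians 12 moved by more than the median derived error (0.20) with a floor of 5 FPKM, 7 with no floor, 4 with a pseudocount of 0.1 FPKM, 3 with 1 FPKM and 4 with genes of status OK. The dawn median then lay between -3.63 and -2.84, the day median between -4.21 and -2.09, the flavonoid median between -1.60 and -0.65 and the SAUR median between -2.11 and -1.93. The B-box median was -0.35 with no floor, with a floor of 5 FPKM and with status OK. The heat shock median turned negative, at -0.15, with a floor of 5 FPKM.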
